A study of Danio rerio with 30 samples.

Results

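Ferritin and the antioxidant enzymes were followed in zebrafish cells sorted as haematopoietic stem and progenitor cells, after an early haemolysis. The genes were chosen by symbol: fth1a, gpx1a, prdx1, prdx2, prdx3, prdx5, prdx6, sod1, sod2 and cat. Of these 10 symbols 9 had a row in the count table, and 10 rows of 20631 were followed, since 2 identifiers carry the symbol prdx1. They are ENSDARG00000025350, spelled PRDX1 in the reference table, and ENSDARG00000058734, spelled prdx1. No row carries prdx2, and the reference gives prdx1 as an older name of prdx2, so which identifier is prdx2 could not be settled and each is given by its identifier. All 10 rows passed the low-count filter.

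RNA-seq was done on cells of low GFP from larvae at 6 days post fertilization, in which the itga2b promoter drives GFP. The sort was by that GFP, and the libraries also held transcripts of other lineages, given below. Embryos were wild type (Rps14+/+) or heterozygous for rps14, a small ribosomal subunit gene, and the labels do not give the allele. Some received 1 µg/mL phenylhydrazine (Phz), an agent that lyses red blood cells, between 24 and 48 hours of age. All then spent 4 days in 20 µM imiquimod, a TLR7 agonist, or in DMSO, so libraries were made 4 days after Phz was washed out. Every group carries the GFP transgene, and each library is a pool of embryos. The wild-type DMSO groups held 3 unstressed and 3 Phz libraries and the heterozygous DMSO groups 4 and 5. With imiquimod there were 4 and 4 wild-type libraries and 3 and 4 heterozygous ones, which gives 14 unstressed and 16 Phz libraries in all.

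Superoxide, formed by respiration and by oxidation of haemoglobin, is turned into hydrogen peroxide by superoxide dismutases. Catalase, glutathione peroxidases and peroxiredoxins then remove the peroxide. Free iron turns peroxide into the more reactive hydroxyl radical, and ferritin holds iron in a safe form. Developing red cells carry much of this equipment, and phenylhydrazine acts on red cells by oxidizing their haemoglobin.

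Total counts were 5703056 to 15238153 per library, with a mean of 6396989 in unstressed and 7977654 in Phz libraries. In libraries S1 to S6, and again in S7 to S33, all unstressed ones come before all Phz ones, so stress and library number cannot be told apart within either run of numbers. The promoter's gene itga2b ranged from 0.269 to 34.2 CPM (a gene's count scaled to a common library total), and the progenitor genes MYB (406 to 1162 CPM) and LMO2 (157 to 724 CPM) were present in every library. Others of the 21 stem and progenitor genes were not: MLLT3 and meis1a were at 0 in 12 libraries each. Up to 5 of the 21 were at 0 in a library. Genes of other lineages were present too. The neutrophil gene lyz held 3800 to 25624 CPM, and 15 neutrophil genes together held 8502 to 37170 CPM. The labels do not say whether replicates are separate embryo pools, so p-values measure a spread that may be technical.

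Ferritin heavy chain, which oxidizes iron and forms the storage shell with its partner chain, is encoded by fth1a. In wild-type DMSO libraries it measured 1068, 675 and 960 CPM without Phz and 1170, 1619 and 1346 CPM after Phz. In heterozygous DMSO libraries it measured 1500, 1239, 900.1 and 1162 CPM without Phz and 1091, 1052, 1277, 1608 and 1355 CPM after. The wild-type groups did not overlap, with every Phz library higher, whereas the heterozygous ranges overlapped almost fully. With imiquimod, wild-type libraries measured 981, 761, 989 and 860 CPM without Phz and 1701, 956, 1234 and 1353 CPM after. Heterozygous imiquimod libraries measured 1133, 1015 and 847 CPM without Phz and 1486, 1435, 1282 and 1796 CPM after. Only 1 wild-type Phz imiquimod library, at 956 CPM, fell within its unstressed range, and all 4 heterozygous ones lay above theirs. Scaled by the TMM normalization used in the tests, that wild-type library held 1003 CPM and its unstressed group at most 991 CPM.

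Over all conditions fth1a averaged 1006 ± 210.02 CPM (SD, n = 14) without Phz and 1360 ± 238 CPM (SD, n = 16) after it. The fitted log2 difference, averaged over the 4 conditions, was 0.48 ± 0.10 (SE), a 1.40-fold higher level, and just missed the threshold by edgeR's quasi-likelihood test (Benjamini-Hochberg adjusted p = 0.053). It ranked 6 of 19930 genes by p. The call depends on the processing: adjusted p was 0.0047 with DESeq2, 0.030 with limma-voom and 0.77 with library depth in the edgeR model, where the difference was 0.32 ± 0.11. In these bulk libraries a higher share of cells that hold a transcript and more of it per cell cannot be told apart.

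Within conditions the fth1a log2 difference was 0.59 ± 0.21 in wild-type DMSO, 0.13 ± 0.17 in heterozygous DMSO, 0.59 ± 0.18 in wild-type imiquimod and 0.62 ± 0.20 in heterozygous imiquimod cells (SE, edgeR adjusted p = 0.44, 0.98, 0.55 and 0.998). The heterozygous DMSO value is the smallest of the 4; it was 0.01 without heterozygous unstressed DMSO replicate 3 and 0.29 without replicate 1. Genotypes did not differ detectably in the response (-0.22 ± 0.19, adjusted p = 0.99), nor did treatments (0.24 ± 0.19, adjusted p = 0.79); the 95% intervals of these differences ran from -0.60 to 0.17 and from -0.14 to 0.63. Reads of near-identical copies, ferritin genes among them, may have been split between genes, which makes the values of duplicated genes uncertain. Without S1 to S6 the averaged fth1a difference was 0.57 ± 0.10 (edgeR adjusted p = 0.059).

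**Figure D1:**
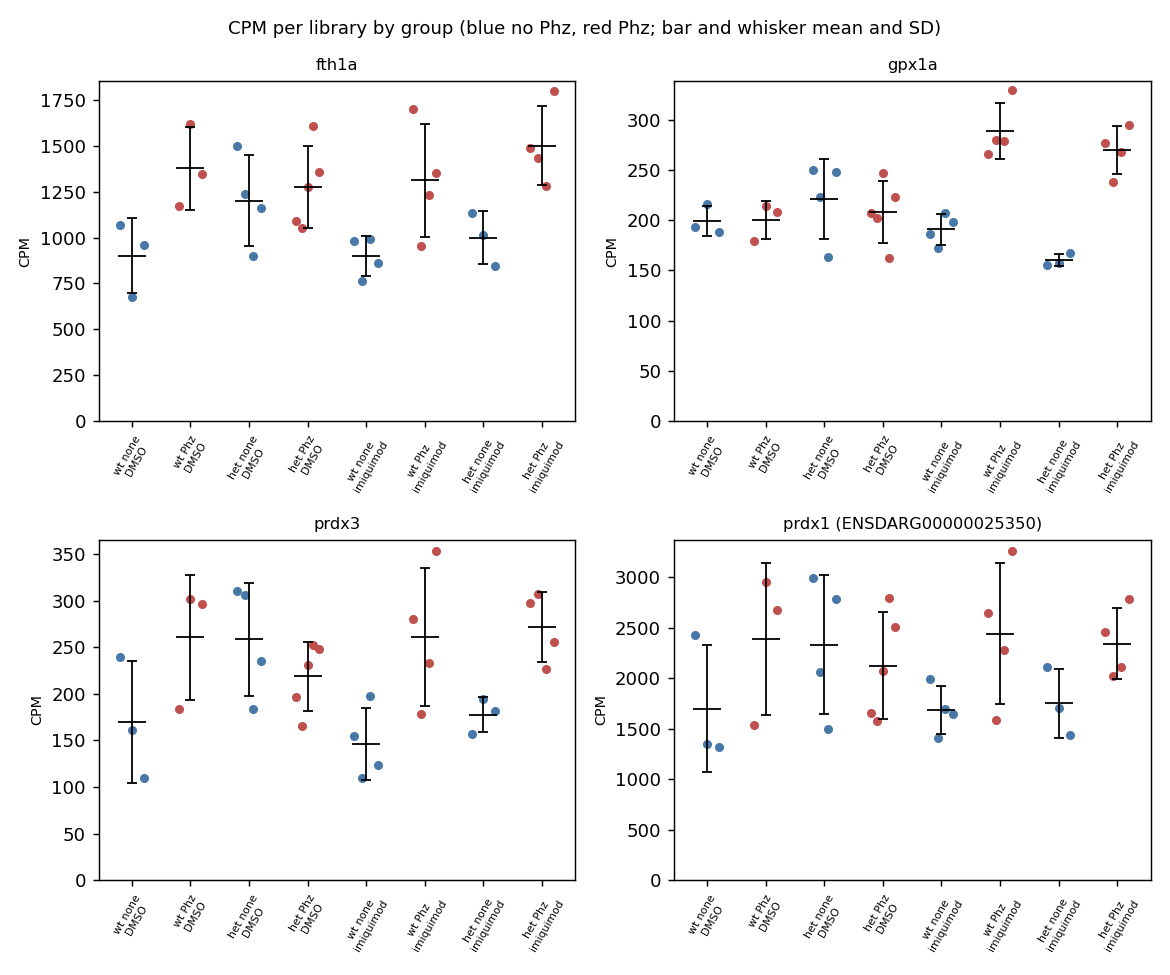
CPM (y axis) in each library (points) of the 8 groups (x axis) for fth1a, gpx1a, prdx3 and the prdx1 row ENSDARG00000025350; blue is without Phz, red after Phz, and bars with whiskers give mean and SD. The gpx1a Phz points stand above their unstressed groups with imiquimod (238 to 330 against 156 to 208 CPM) and overlap them with DMSO.

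The glutathione peroxidase gene gpx1a, whose product uses glutathione to reduce peroxide, separated by treatment. In DMSO, wild-type libraries measured 194, 216 and 188 CPM without Phz and 179, 214 and 208 CPM after it. Heterozygous DMSO libraries measured 249.8, 223, 164 and 248 CPM without Phz and 207, 202, 247, 162 and 223 CPM after. In both genotypes the DMSO groups overlapped. In imiquimod, wild-type libraries measured 186, 172, 208 and 198 CPM without Phz and 266, 279.9, 279 and 330 CPM after. Heterozygous imiquimod libraries measured 156, 158 and 167 CPM without Phz and 277, 238, 268 and 295 CPM after. With imiquimod every Phz library lay above every unstressed library, in both genotypes. Total counts separated in the same way, at 5703056 to 6557319 in unstressed and 6877888 to 15238153 in Phz imiquimod libraries. In DMSO the totals overlapped in both genotypes. Stress and depth thus cannot be told apart within the imiquimod groups.

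The gpx1a log2 differences after Phz were 0.64 ± 0.16 in wild-type and 0.79 ± 0.17 in heterozygous imiquimod cells (SE, edgeR adjusted p = 0.25 and 0.24). In DMSO they were -0.00 ± 0.18 and -0.03 ± 0.15, with 95% intervals from -0.37 to 0.36 and from -0.33 to 0.27. The difference between the treatments was itself tested: it was 0.73 ± 0.16 with an interval from 0.40 to 1.07 and an unadjusted p of 9e-05, and missed the threshold over all genes (edgeR adjusted p = 0.10; 0.0028 with DESeq2, 0.44 with the depth term). It lay at rank 17 by p. The genotypes did not differ detectably (0.06 ± 0.16, adjusted p = 1). Averaged over conditions gpx1a was 0.35 ± 0.08 higher on the log2 scale (edgeR adjusted p = 0.11, DESeq2 0.013, depth term 0.78), with 195 ± 31.03 CPM (SD, n = 14) without and 242 ± 45.6 CPM (SD, n = 16) after Phz.

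Catalase, the peroxisomal enzyme that splits peroxide without a cofactor thiol, is encoded by cat. Its group means were 84.4 ± 11.6 against 90.6 ± 13.7 CPM in wild-type DMSO and 101 ± 13.7 against 108 ± 28.6 CPM in heterozygous DMSO cells (SD; without and after Phz). With imiquimod they were 71.7 ± 16.8 against 90.9 ± 6.08 CPM in wild type and 80.0 ± 9.23 against 100.4 ± 8.501 CPM in heterozygotes. The Phz mean was the higher one each time, but in each condition the libraries overlapped, and the averaged log2 difference of 0.25 ± 0.10 missed the threshold (edgeR adjusted p = 0.30).

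The superoxide dismutases form peroxide from superoxide, sod1 in the cytosol with copper and zinc and sod2 in mitochondria with manganese. The 3 unstressed wild-type DMSO libraries held 99.1, 99.5 and 98.2 CPM of sod1, against 90.1, 118 and 153 CPM after Phz. With imiquimod, sod1 measured 88.3, 89.5, 92.9 and 94.9 CPM in unstressed and 111, 95.1, 135 and 117 CPM in Phz wild-type libraries. Heterozygous imiquimod libraries held 87.9, 95.2 and 83.8 CPM without and 123, 107, 120 and 98.9 CPM after Phz. The imiquimod groups did not overlap in either genotype, although the wild-type gap was narrow, from 94.9 to 95.1 CPM. In heterozygous DMSO cells sod1 averaged 112 CPM both without and after Phz. Averaged over conditions the sod1 log2 difference was 0.26 ± 0.09 (edgeR adjusted p = 0.20).

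For sod2, unstressed wild-type imiquimod libraries measured 69.7, 43.0, 49.9 and 50.7 CPM and Phz ones 69.0, 91.1, 86.5 and 80.8 CPM. Heterozygous imiquimod libraries measured 66.9, 61.3 and 72.9 CPM without and 91.5, 94.9, 87.1 and 80.5 CPM after Phz. The heterozygous groups did not overlap, and in wild type 1 unstressed library, at 69.7 CPM, overlapped the Phz range. In DMSO the sod2 means were 66.4 ± 14.6 against 77.1 ± 21.2 CPM in wild type and 78.4 ± 14.2 against 87.1 ± 19.5 CPM in heterozygotes (SD), with overlap in both. The averaged log2 difference was 0.37 ± 0.11 (edgeR adjusted p = 0.18).

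Among the peroxiredoxins, which reduce peroxide through a reactive cysteine, prdx3 is the mitochondrial enzyme. In wild-type DMSO libraries it measured 239, 161 and 109 CPM without Phz and 184, 302 and 297 CPM after. Heterozygous DMSO libraries measured 310.2, 307, 184 and 235 CPM without and 197, 165, 231, 253 and 248 CPM after. Here the 2 genotypes ran in opposite directions by their means, and both pairs of groups overlapped. In imiquimod, wild-type libraries measured 154, 110.2, 198 and 123 CPM without and 281, 179, 233 and 353 CPM after Phz. Heterozygous imiquimod libraries measured 157, 194 and 182 CPM without and 298, 307, 227 and 256 CPM after. The heterozygous imiquimod groups did not overlap, and 1 wild-type Phz library, at 179 CPM, lay below the highest unstressed one.

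The averaged prdx3 log2 difference was 0.49 ± 0.12 (1.40-fold; edgeR adjusted p = 0.11, DESeq2 0.042, depth term 0.78). By condition it was 0.61 ± 0.26 in wild-type DMSO, -0.20 ± 0.21 in heterozygous DMSO, 0.88 ± 0.23 in wild-type imiquimod and 0.65 ± 0.25 in heterozygous imiquimod cells (edgeR adjusted p = 0.44, 0.97, 0.36 and 0.998). The difference between genotypes was -0.52 ± 0.24 (unadjusted p = 0.035, edgeR adjusted p = 0.89). The difference between treatments was 0.56 ± 0.24 (unadjusted p = 0.025, edgeR adjusted p = 0.49).

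The cytosolic peroxiredoxin ENSDARG00000025350 (PRDX1) showed wide spread inside groups. Wild-type DMSO libraries measured 2429, 1349 and 1317 CPM without and 1537, 2949 and 2679 CPM after Phz. Wild-type imiquimod libraries measured 1991, 1407, 1691 and 1645 CPM without and 2648, 1584, 2273 and 3259 CPM after. The groups overlapped in both. Without unstressed replicate 1, at 2429 CPM, the wild-type DMSO log2 difference went from 0.48 to 0.78. Without Phz replicate 2, at 1584 CPM, the wild-type imiquimod one went from 0.58 to 0.74. Heterozygous means were 2331 ± 689 against 2121 ± 530.2 CPM in DMSO and 1749 ± 340.5 against 2342 ± 351 CPM in imiquimod (SD). The averaged log2 difference was 0.35 ± 0.12 (edgeR adjusted p = 0.21), 0.54 ± 0.13 without S1 to S6 and 0.18 ± 0.15 with the depth term.

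The other prdx1 row, ENSDARG00000058734, was a low-count gene with 3.87 to 55.2 CPM. Its log2 difference was negative in both DMSO conditions (-1.01 ± 0.64 and -0.67 ± 0.52) and positive in both imiquimod ones (0.33 ± 0.55 and 0.40 ± 0.60). The averaged value was -0.24 ± 0.29 (edgeR adjusted p = 0.81), and the difference between treatments was 1.201 ± 0.58 (unadjusted p = 0.046, adjusted p = 0.56).

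Peroxiredoxin 5, found in several compartments in mammals, was the other gene with a lower mean after Phz. Wild-type DMSO libraries held 409 ± 109 CPM of prdx5 without and 292 ± 37.6 CPM after Phz (SD), a log2 difference of -0.51 ± 0.23 (unadjusted p = 0.031, edgeR adjusted p = 0.44). It was -0.23 (unadjusted p = 0.36) without unstressed replicate 3, the library at 525.6 CPM, and -0.71 without unstressed replicate 1. The other 3 conditions gave -0.10 to 0.11, and the averaged value was -0.10 ± 0.10 (adjusted p = 0.75). The single-cysteine peroxiredoxin prdx6 ranged from 117 to 221 CPM and had an averaged log2 difference of 0.15 ± 0.09 (adjusted p = 0.54). Its largest difference was 0.40 ± 0.18 in wild-type imiquimod cells, where the groups overlapped.

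**Figure D2:**
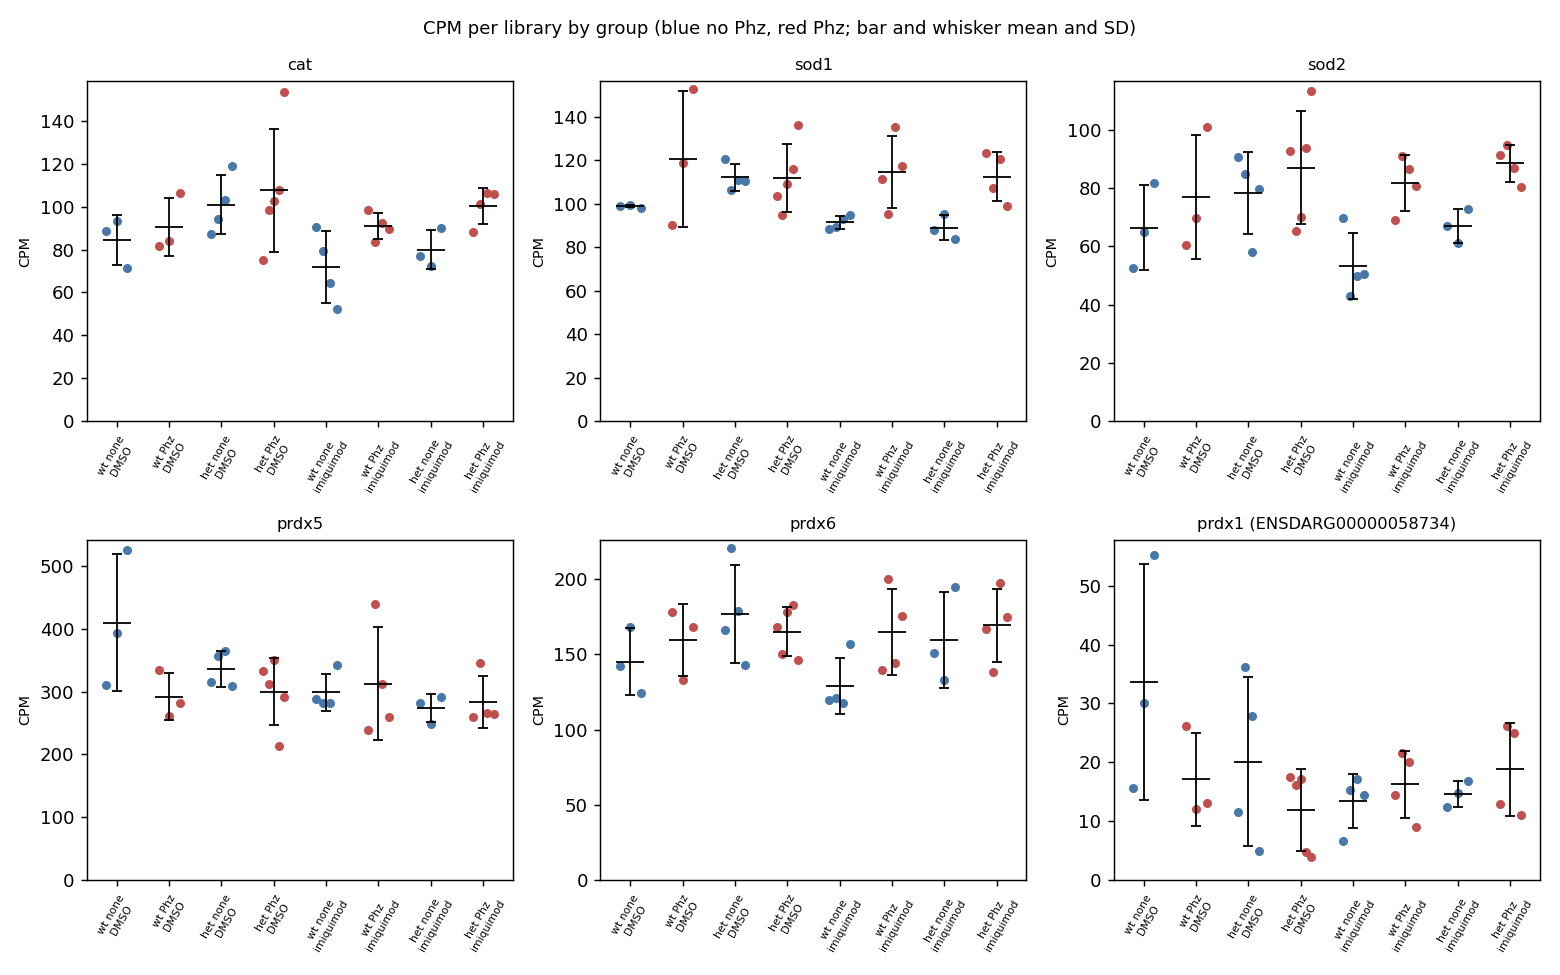
CPM (y axis) in each library (points) of the 8 groups (x axis) for cat, sod1, sod2, prdx5, prdx6 and the prdx1 row ENSDARG00000058734; blue is without Phz, red after Phz, and bars with whiskers give mean and SD. Within each genotype the sod1 imiquimod groups do not overlap (from 95.1 CPM up in wild type and 98.9 CPM up in heterozygotes after Phz), and prdx5 has 1 unstressed library at 525.6 CPM.

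By edgeR 0 of the 10 genes passed an adjusted p of 0.05 for the averaged Phz difference, where the background was 0.0201% of all genes (4 genes). At an unadjusted p under 0.05, 7 of 10 were higher (fth1a, gpx1a, cat, sod1, sod2, prdx3 and ENSDARG00000025350), against 3.95% of all genes and 6.99% of the 9197 genes at 10 CPM or more. Positive log2 differences were found for 8 of 10, with a median of 0.31, against 44.2% of all genes and a median of -0.06 (0.04 for genes at 10 CPM or more). The genes were chosen with earlier results of these data known, and several ran together over the libraries. Here and below, counts set against all genes are therefore descriptions, with no test of the set. DESeq2 called 3 (fth1a, gpx1a and prdx3) among 167 genes of the table, and limma-voom called 1 (fth1a) among 14. The 4 genes that edgeR called were tomm20a (0.67 ± 0.12), a mitochondrial import receptor, zgc:56095 (0.69 ± 0.12), the scaffold gene ahnak (-0.75 ± 0.13) and PHEX (-5.17 ± 0.97). Their edgeR adjusted p ran from 0.029 to 0.038.

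In wild-type imiquimod cells 10 of 10 differences were positive (median 0.49) and 8 had an unadjusted p under 0.05, against 45.9 and 3.02% of all genes. In heterozygous imiquimod cells 10 were positive (median 0.41) and 4 had such a p, against 46.9 and 2.06%. In wild-type DMSO cells 7 were positive (median 0.16; 44.9% of all genes). At that p 2 were higher, fth1a and prdx3 (3.67% of all genes), and 1 lower, prdx5 (7.06%). In heterozygous DMSO cells 4 were positive (median -0.04; 46.2% of all genes) and 0 had such a p (2.42% of all genes were higher), edgeR's adjusted threshold being passed by 0 genes of the table and DESeq2's by 17. Among genes at 10 CPM or more, the share higher at an unadjusted p under 0.05 was larger than among all genes. It was 4.64% in wild-type DMSO, 3.50% in heterozygous DMSO, 5.45% in wild-type imiquimod and 3.73% in heterozygous imiquimod cells. Under edgeR 0 of 10 passed the adjusted threshold in each of the 4 conditions, as did 0% of all genes. DESeq2 called gpx1a in wild-type imiquimod (adjusted p = 0.022) and heterozygous imiquimod cells (0.012), among 38 and 19 genes of the table.

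Every Phz library lay above every unstressed one for 5 genes in heterozygous imiquimod cells (fth1a, gpx1a, prdx3, sod1 and sod2; 3.62% of all genes) and for 2 in wild-type imiquimod cells (gpx1a and sod1; 1.84%). This held for 1 in wild-type DMSO cells (fth1a, 4.55%) and for 0 in heterozygous DMSO cells (0.477%). Total counts did not overlap in either imiquimod condition, Phz libraries being deeper, and overlapped in both DMSO ones. The Phz group had the higher mean CPM in all 4 conditions for 3 genes, cat, fth1a and sod2 (5.17% of all genes).

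**Figure D3:**
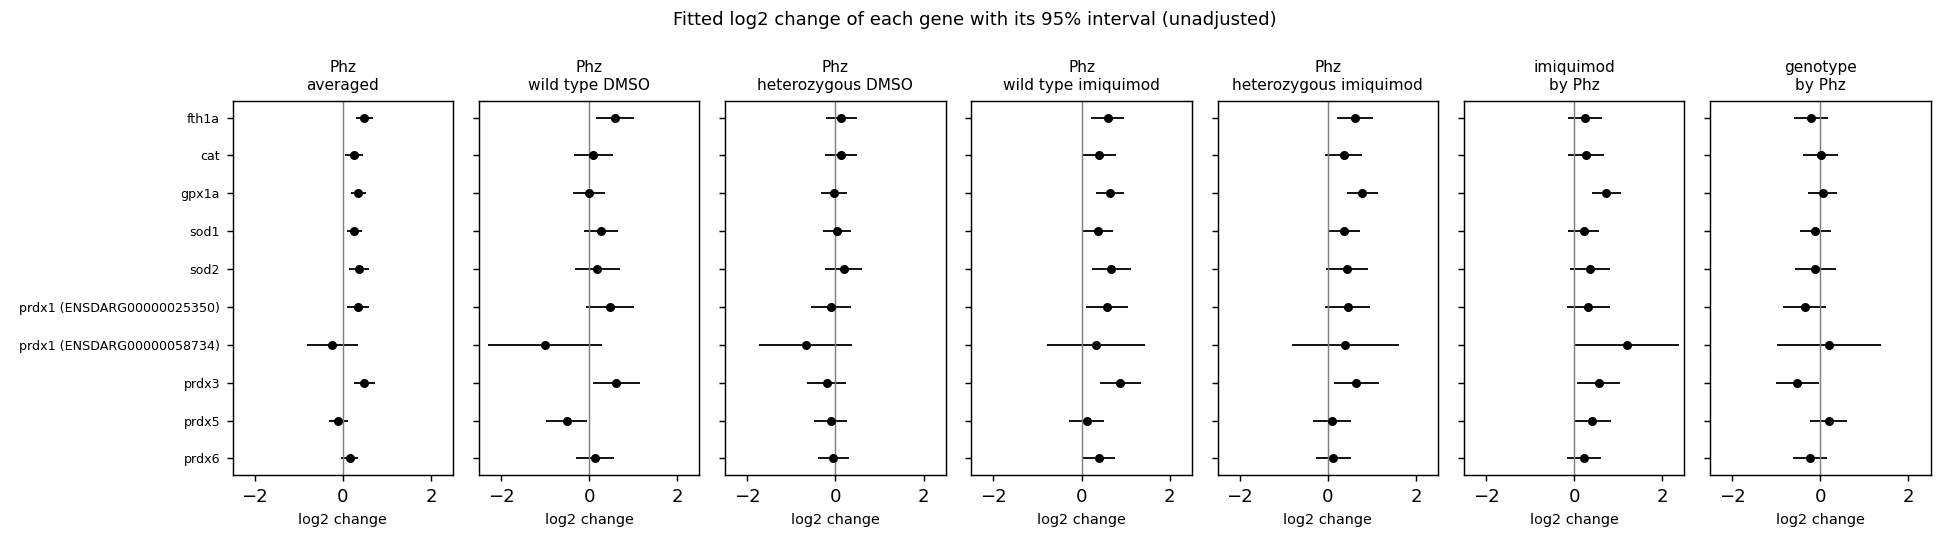
Fitted log2 difference (x axis, points) with its unadjusted 95% interval (lines) for each gene (y axis), in panels for Phz averaged, Phz in each condition and the 2 interactions. Points lie right of 0 for all 10 genes in both imiquimod panels and for 4 in the heterozygous DMSO panel.

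The difference between treatments in the Phz response was positive for 10 of 10 genes (median 0.34; 52.2% of all genes), and 0 passed the adjusted threshold by edgeR (0.0351% of all genes, 7 genes). At an unadjusted p under 0.05 it was higher for 3 (gpx1a, prdx3 and ENSDARG00000058734), against 5.41% of all genes. DESeq2 called gpx1a among 102 genes of the table. The difference between genotypes was positive for 4 (52.7% of all genes), with a median of -0.12, and 0 passed (0% of all genes); prdx3 had the single unadjusted p under 0.05, on the lower side (2.5% of all genes).

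Without regard to Phz, 0 of 10 genes passed for genotype by edgeR (0.437% of all genes), 5 had a positive difference (heterozygous minus wild type; 52.3% of all genes), and prdx5 alone had an unadjusted p under 0.05 (8.98% of all genes; -0.23 ± 0.10, adjusted p = 0.49). For imiquimod against DMSO 0 of 10 passed (0.00502% of all genes) and 0 had an unadjusted p under 0.05 (8.98%), while 1 of 10, gpx1a, had a positive difference (57.3%; median -0.13). DESeq2 called 0 members in both comparisons, where it called 259 genes of the table for genotype and 54 for imiquimod.

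Libraries S1, S2, S5 and S6 give the imiquimod comparison within the first run of numbers, where the unstressed pair again has the lower numbers. In the wild-type imiquimod pair fth1a went from 981 CPM in S1 to 1701 CPM in S5, and in the heterozygous pair from 1133 CPM in S2 to 1486 CPM in S6. The same pairs held 186 and 266 CPM, and 156 and 277 CPM, of gpx1a. The Phz library was higher for 8 of 10 genes in wild type and for 9 of 10 in heterozygotes. These are single libraries, with no test, and the share of all genes higher in these pairs was not computed. Total counts were higher too, from 5840749 in S1 to 7975113 in S5 and from 5960325 in S2 to 7941428 in S6. The summed erythroid level, described below, went from 3862 to 6375 CPM and from 3881 to 6303 CPM in these pairs.

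Over all genes, 44.2% had a positive averaged Phz difference, and 3.95% were higher and 8.4% lower at an unadjusted p under 0.05; the other genes of the pathway are read beside these shares. Of 24 tested further antioxidant genes, 0 passed for the averaged Phz difference by edgeR, 17 were positive (median 0.14), and 2 were higher and 1 lower at an unadjusted p under 0.05. GLRX5, a mitochondrial glutaredoxin needed for iron-sulfur clusters, was 0.49 ± 0.12 higher (adjusted p = 0.11, DESeq2 0.032). The thioredoxin reductase gene TXNRD3 (0.19 ± 0.11) and GPX4 (0.14 ± 0.09), which protects lipids, had adjusted p of 0.53. Of 21 genes of glutathione and NADPH supply, 0 passed, 8 were positive (median -0.05), 1 was higher and 2 lower at that p. GCLM, the modifier subunit of the first enzyme of glutathione synthesis, was at 0.69 ± 0.29 (adjusted p = 0.31), MGST1 at -0.29 ± 0.13 (0.33) and TALDO1, of the pentose phosphate pathway, at -0.12 ± 0.08 (0.56). A second row that carries MGST1 was at -0.00084 ± 0.26.

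NRF2 is the transcription factor that switches on many antioxidant genes, KEAP1 holds it down and BACH1 competes for its sites. Of 22 such regulators and targets 0 passed by edgeR, 10 were positive (median -0.06) and 1 was higher at an unadjusted p under 0.05. That was blvrb, biliverdin reductase B, at 0.39 ± 0.14 (adjusted p = 0.23). The haem oxygenase HMOX2 was at -0.37 ± 0.19 (0.42) and BACH1 at -0.50 ± 0.30 (0.53). Of 20 tested iron genes 0 passed, 13 were positive (median 0.22), and 4 were higher and 0 lower at that p. They include IREB2 (0.34 ± 0.13, adjusted p = 0.24), whose product binds iron-responsive elements of ferritin mRNA, the hepcidin gene hamp (1.69 ± 0.67, 0.29) and the iron chaperone PCBP2 (0.23 ± 0.09, 0.29). Of these, hamp was a low-count gene, at 0 to 24.2 CPM. It averaged 2.23 ± 2.46 CPM without and 8.53 ± 8.29 CPM after Phz (SD). The other ferritin rows of this list ran both ways. Positive were fthl27 (0.31 ± 0.24, edgeR adjusted p = 0.66) and fthl31 (0.53 ± 0.40, 0.65). Negative were FTH1 (-0.51 ± 0.42, 0.68), fthl28 (-0.47 ± 0.36, 0.66) and fthl29 (-0.10 ± 0.66, 0.99). Of these fthl27 had the highest level, at 531 CPM without and 644 CPM after Phz. DESeq2 called 1 gene of the 4 lists, GLRX5, among 167 genes of the table.

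Erythroid genes moved with several of these genes. The summed level of 33 erythroid genes was 1861 to 5896 CPM (mean 3739) in unstressed and 2336 to 7339 CPM (mean 4920) in Phz libraries, and at most 3 of the 33 were at 0 in any library. The defining globin gene hbae3 ranged from 25.2 to 716 CPM, alas2 of haem synthesis from 2.38 to 110 CPM and gata1a from 7.53 to 99.6 CPM. By condition the sum averaged 2948 without and 5816 CPM after Phz in wild-type DMSO, 4673 and 4050 CPM in heterozygous DMSO, 3406 and 4995 CPM in wild-type imiquimod, and 3729 and 5261 CPM in heterozygous imiquimod libraries. It thus ran lower after Phz in heterozygous DMSO cells, where 4 of the 10 antioxidant and ferritin genes were positive, and higher in the other conditions. Its widest rise was in wild-type DMSO cells, where 7 of the 10 were positive (median 0.16). The smaller rises with imiquimod went with 10 of 10 positive (median 0.49 in wild type and 0.41 in heterozygotes). Of the 33 erythroid genes 29 had positive averaged differences (median 0.36; 44.2% of all genes), 12 of them with an unadjusted p under 0.05 (3.95%) and 0 past edgeR's threshold. The summed neutrophil level averaged 19586 CPM in unstressed and 15261 CPM in Phz libraries. In the averaged difference 3 of its 15 genes were positive (44.2% of all genes). At an unadjusted p under 0.05, 5 were lower (8.4% of all genes), with 0 past edgeR's threshold. By condition the neutrophil sum averaged 24583 without and 14738 CPM after Phz in wild-type DMSO, 15046 and 16903 CPM in heterozygous DMSO, 22372 and 15786 CPM in wild-type imiquimod, and 16927 and 13074 CPM in heterozygous imiquimod libraries. It was thus the higher one after Phz in heterozygous DMSO cells, opposite to the erythroid sum. The sum of 22 macrophage genes averaged 1223 and 1019 CPM, with its widest gap in heterozygous imiquimod libraries (1627 and 1032 CPM). The sum of 28 liver and exocrine pancreas genes averaged 3092 and 1145 CPM there, and reached 8925 CPM in 1 heterozygous Phz DMSO library. A CPA1 row of that list held 413 to 1481 CPM and was never at 0, while up to 20 of the 28 genes were at 0 in a library. Over all conditions the sums for thrombocyte (784 and 821 CPM), stem and progenitor (1931 and 1951 CPM) and 17 lymphoid genes (1346 and 1375 CPM) lay close together. By condition they ran both ways. The stem and progenitor sum averaged 1790 and 2101 CPM in wild-type DMSO but 2082 and 1826 CPM in heterozygous imiquimod libraries. The lymphoid sum averaged 1007 and 1402 CPM in heterozygous DMSO but 1658 and 1291 CPM in heterozygous imiquimod libraries.

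Log2 levels across the 30 libraries were set against the log2 of this erythroid sum, of the neutrophil sum and of the total count, 30 relations in all. The permutations shuffled all 30 libraries freely, without regard to group or library number, so their p-values may be too small. With the erythroid sum ENSDARG00000025350 gave Pearson's r = 0.91 and Spearman's rho = 0.92 (permutation p = 1e-05 each, the smallest the resamples allow; adjusted p = 5e-05 and 7.5e-05). Leaving out the 2 libraries farthest from the median gave 0.90, and r was 0.90 within the 14 unstressed and 0.89 within the 16 Phz libraries. For prdx3 r was 0.83 and rho 0.85, and for fth1a 0.82 and 0.84, with the same permutation p and adjusted p for each. Without the 2 farthest libraries r was 0.81 and 0.80; it was 0.78 and 0.80 within unstressed and 0.86 and 0.82 within Phz libraries. Within S7 to S33 the 3 genes gave 0.91, 0.83 and 0.81, and within S1 to S6 0.85, 0.98 and 0.88. They thus followed the erythroid sum inside each stress class and each run of library numbers. Within S1 to S6 they followed the total count as closely (r = 0.90, 0.96 and 0.93). There gpx1a (0.94) and sod1 (0.95) also followed the erythroid sum, but less so within S7 to S33 (0.33 and 0.54). With the neutrophil sum, ENSDARG00000025350, prdx3 and fth1a gave r of -0.85, -0.74 and -0.70 and rho of -0.86, -0.70 and -0.75 (adjusted permutation p of r = 5e-05, 5e-05 and 0.00010). All levels are shares of one library, so they are not independent.

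Not every gene followed the erythroid sum over all 30 libraries. For gpx1a r was 0.39 and rho 0.43 (permutation p = 0.035 and 0.019, adjusted p = 0.054 and 0.028; 0.41 without the 2 farthest), with 0.38 within unstressed and 0.13 within Phz libraries. For sod1 r was 0.54 and rho 0.61 (permutation p = 0.0022 and 0.00044, adjusted p = 0.0050 and 0.0010; 0.57 without the 2 farthest, 0.32 and 0.52 within classes). For sod2, cat and prdx6 r was 0.34, 0.36 and 0.02, with rho of 0.36, 0.37 and -0.07 (adjusted permutation p of r = 0.088, 0.073 and 0.89; of rho = 0.063, 0.062 and 0.75). Within classes r ran from 0.06 to 0.25 for sod2 and cat and was 0.10 and -0.35 for prdx6, and without the 2 farthest libraries the 3 gave 0.40, 0.35 and -0.07. For prdx5 r was -0.72 and rho -0.68 (permutation p = 1e-05 and 9e-05, adjusted p = 5e-05 and 0.00027), with -0.61 without the 2 farthest and -0.58 and -0.82 within classes. ENSDARG00000058734 gave -0.59 and -0.62 (permutation p = 0.00069 and 0.00034, adjusted p = 0.0017 and 0.00085; -0.44 without the 2 farthest, -0.66 and -0.49 within classes). Its r was 0.59 within S1 to S6 and -0.63 within S7 to S33.

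The neutrophil sum related to more of these genes. For sod1 r was -0.53 and rho -0.57 (adjusted permutation p = 0.0054 and 0.0028), for cat -0.47 and -0.44 (0.016 and 0.025) and for sod2 -0.43 and -0.42 (0.029 and 0.032). Without the 2 farthest libraries these 3 gave r of -0.52, -0.46 and -0.50, and within classes r ran from -0.49 to -0.26. For gpx1a r was -0.39 and rho -0.38 (adjusted permutation p = 0.054 and 0.053; -0.35 without the 2 farthest, -0.42 and -0.16 within classes), and for prdx6 -0.18 and -0.09 (0.36 and 0.68). The signs were reversed for prdx5 (0.68 and 0.63; adjusted permutation p = 8.6e-05 and 0.00041; 0.65 without the 2 farthest, 0.49 and 0.85 within classes) and ENSDARG00000058734 (0.68 and 0.71; 0.00010 and 0.00021; 0.62 without the 2 farthest, 0.69 and 0.65 within classes).

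**Figure D4:**
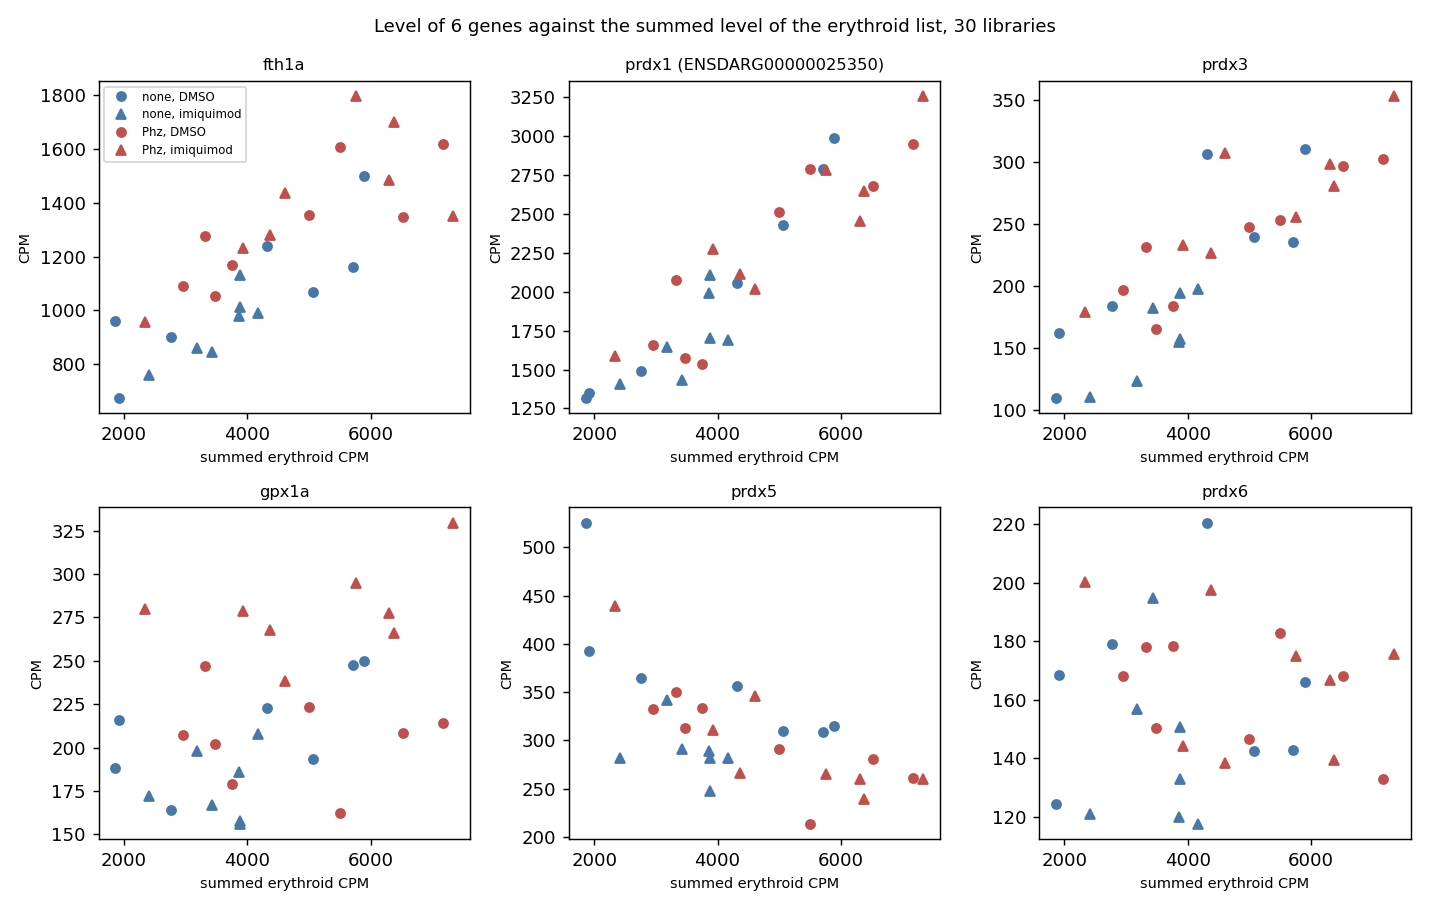
CPM (y axis) of 6 genes against the summed CPM of 33 erythroid genes (x axis) in the 30 libraries; blue is without and red after Phz, circles DMSO and triangles imiquimod. The prdx1 row ENSDARG00000025350, prdx3 and fth1a rise along the x axis (r = 0.91, 0.83 and 0.82), prdx5 falls (-0.72) and prdx6 shows no trend (0.02).

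The total count also moved with several genes. For fth1a r with the total was 0.65 and rho 0.73 (permutation p = 5e-05 and 3e-05, adjusted p = 0.00015 for each; 0.65 without the 2 farthest), and 0.41 within unstressed and 0.56 within Phz libraries. For gpx1a r was 0.63 and rho 0.68 (permutation p = 0.00011 and 7e-05, adjusted p = 0.00030 and 0.00026; 0.64 without the 2 farthest), and 0.70 and 0.40 within those classes. For prdx3 r was 0.49 and rho 0.61 (adjusted permutation p = 0.0086 and 0.0010; 0.64 without the 2 farthest, 0.53 and 0.22 within classes). For ENSDARG00000025350 they were 0.49 and 0.55 (0.0054 and 0.0035; 0.53 without the 2 farthest, 0.35 and 0.39 within classes). For these 4 genes r with the total was positive within both stress classes. This held also for cat (0.16 within unstressed and 0.10 within Phz libraries) and prdx6 (0.18 and 0.32). For sod1, sod2, prdx5 and ENSDARG00000058734 it was positive within unstressed libraries only. No test was made within classes, and some of these r were small. For sod1 r and rho with the total were 0.32 and 0.58 (adjusted permutation p = 0.11 and 0.0019), with r of 0.61 without the 2 farthest, 0.63 within unstressed and -0.13 within Phz libraries. For sod2 they were 0.37 and 0.47 (0.059 and 0.015; 0.53 without the 2 farthest), with 0.50 and -0.11 within classes. For cat, prdx6, prdx5 and ENSDARG00000058734 r was 0.30, 0.34, -0.21 and -0.05, with adjusted permutation p of 0.085 or more for r and 0.062 or more for rho. The part of the erythroid, neutrophil, macrophage and liver and pancreas shares and of the total in the Phz differences was not tested, apart from the depth term given above.

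Among themselves, fth1a, prdx3 and ENSDARG00000025350 ran together over the 30 libraries (r of log2 levels 0.79 to 0.84, as a description). The genes most alike to the mean of the standardised members, out of 6717 compared over 30 libraries by r of log2(CPM + 1), were NDUFB10 (0.83), SNRPD2 (0.81), ndufb3 (0.81), H2AZ2 (0.80), SNRPD1 (0.78) and tomm20a (0.78). They encode respiratory complex I subunits, spliceosomal proteins, a histone and a mitochondrial import receptor. To fth1a alone the most alike were znfl2a (0.87), itself on the erythroid list, GLRX5 (0.83) and RGCC (0.82). All these correlations share libraries and depth, and no test was made of them.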

How the data were processed

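RNA-seq was made by Smart-seq2 without molecular identifiers, per the labels' protocols, so depth limits counted reads and not molecules. The authors deposited whole-number counts per gene, not normalized. GRCz11 was the build, and featureCounts (Subread 2.0.0), SAMtools 1.9, HISAT2 2.1.0, DESeq2, Trimmomatic 0.39 and FastQC 0.11.9 are listed in the submitters' processing notes. Not given in the sources used here are annotation release, strand and gene filter; without strand, antisense reads cannot be told apart. Symbols matched 19528 of 20631 identifiers. Genes followed here are written in lower case and other genes as the reference table spells them.

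CPM was computed from the deposited counts and their library totals, without TMM, and statements on overlap use that scale. With CPM on TMM-scaled totals, 2 of 80 group means of members moved by their SD or more. edgeR 4.0.16 (R 4.3.3) used TMM, filterByExpr, robust quasi-likelihood tests and 1 model of 8 groups over 30 libraries, in 9 contrasts with Benjamini-Hochberg adjustment over 19930 genes (called under 0.05). The scripts were checked on simulated counts. Named beside the chosen genes were the 3 genes of smallest p per pathway list at a mean log2 CPM from 1 up, genes called for averaged Phz, and the most alike genes. The other ferritin rows of the iron list were named as well. Members and lists were chosen with earlier results of these data known. Permutation tests of correlations used 100000 resamples (SciPy 1.17.1), two-sided. Alternatives were DESeq2 1.42.0 and its size factors, limma-voom 3.58.1, no filter, replicate block, a run term for S1 to S6, their removal, a depth term and leaving out each library. No sequences were used here.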

Additional observations from a re-analysis of the deposited data

Results flagged for a closer look

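In 3 of 50 sets of 4 or 5 libraries tested, 1 library lay far from the others; chance alone flags about 1 in 20. For prdx5, heterozygous Phz imiquimod replicate 2 held 346 CPM where the other 3 held 260 to 266 CPM. For prdx5, wild-type unstressed imiquimod replicate 4 held 342 CPM against 282 to 289 CPM. For prdx6, the same library held 157 CPM against 117 to 121 CPM.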

How the results depend on the processing

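The averaged Phz difference kept its direction for all 10 genes under every alternative run, those that left out a library included. The depth term, whose covariate differs with stress, gave 0.32 for fth1a, 0.25 for gpx1a, 0.40 for prdx3 and 0.18 for ENSDARG00000025350 and left cat at 0.25, sod1 at 0.28 and sod2 at 0.39 with wider standard errors; adjusted p was 0.77 or more for each of the 10. The number of genes called for averaged Phz (4) became 167 with DESeq2, 14 with limma-voom, 13 with the run term, 2 without S1 to S6, 1 with the depth term and 0 with the replicate block; members called (0) became 3 with DESeq2 and 1 with limma-voom, no filter and the run term, and other pathway genes 1 with DESeq2. With DESeq2, genes called were 126 in wild-type DMSO (1 without S1 to S6), 17 in heterozygous DMSO, 38 in wild-type imiquimod, 19 in heterozygous imiquimod (1 with its size factors, limma-voom or the replicate block), 259 for genotype (87), 54 for imiquimod (1; limma-voom 5, block and removal of S1 to S6 2 each), 23 for genotype by Phz and 102 for imiquimod by Phz (7; size factors 3, no filter 4, block 11, run term 13, without S1 to S6 2, depth term 1); DESeq2 called 1 member in each imiquimod condition and in the last. Leaving out single libraries gave 0 to 8 genes and 0 to 1 members for averaged Phz. The member was fth1a, called without wild-type unstressed DMSO replicate 1 or 3, wild-type Phz DMSO 1, heterozygous unstressed DMSO 1, heterozygous Phz DMSO 2, wild-type unstressed imiquimod 3 or wild-type Phz imiquimod 2 (adjusted p 0.022 to 0.133 over the 30). It gave 0 to 1 genes in wild-type DMSO, 0 to 3 in heterozygous imiquimod, 47 to 117 for genotype, 0 to 5 for imiquimod, and 1 to 9 with 0 to 1 members for imiquimod by Phz (gpx1a, without heterozygous unstressed DMSO 3, adjusted p = 0.044). Values near 0 changed sign: wild-type DMSO gpx1a 0.0021 (no filter); heterozygous DMSO cat -0.0033, prdx6 0.0051 and sod1 -0.018 (replicate block), ENSDARG00000025350 0.019 (run term), and 0.074 with gpx1a 0.063 (without S1 to S6); heterozygous imiquimod prdx6 -0.0011 (depth term); genotype ENSDARG00000025350 0.0048 (limma-voom); genotype by Phz cat -0.014 (size factors and DESeq2), -0.057 (block) and -0.044 (without S1 to S6). Leaving out libraries, signs changed over -0.16 to 0.063 (gpx1a), -0.27 to 0.074 (ENSDARG00000025350), -0.18 to 0.0064 (prdx5), -0.13 to 0.075 (prdx6) and -0.0072 to 0.11 (sod1) in heterozygous DMSO, -0.027 to 0.16 (prdx5) in heterozygous imiquimod, -0.096 to 0.23 (prdx5) in wild-type imiquimod, -0.038 to 0.16 (cat), -0.061 to 0.042 (gpx1a) and -0.062 to 0.43 (sod2) in wild-type DMSO, -0.073 to 0.059 (ENSDARG00000025350) for genotype, and -0.066 to 0.071 (cat), -0.0063 to 0.10 (gpx1a), -0.12 to 0.45 (ENSDARG00000058734) and -0.24 to 0.0075 (sod2) for genotype by Phz. The causes were not tested. Libraries were also compared by each gene's departure from its group mean in log2 CPM, over genes averaging above 4. These departures correlated at a mean of 0.04 in same-numbered libraries of different groups (94 pairs, 45 over 0.1, lowest -0.33). In differently numbered ones the mean was -0.01 (298 pairs, 83 over 0.1). The levels themselves correlated at 0.70 to 0.96 between any 2 libraries. The main model took the replicate numbers as names and used no block. Same-numbered pairs were over 0.1 more often, so whether they share a source was not settled.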
